A study of Mus musculus with 4 samples.

Results

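The 1110 array probes that the array files place on mouse chromosome 18 were examined in order of their position, out of 41174 probes that were not control spots. The members were all probes with a chromosome 18 coordinate, and the chromosome was divided at 24.2, 36 and 50 Mb into 4 windows, numbered here from the start of the chromosome. The chromosome and its windows were chosen because the proximal and the more distal probes differed in opposite directions between the mutant lines. The difference between the lines is therefore given below as a description, with no test. The probes lay between positions 3271756 and 89438085, as numbered in a genome build not given in the sources used here. Of the 1110 probes, 918 were kept, 82.7% of them, since at least one line had mutant or wild-type RNA well above background on each of its arrays. They stood for 576 genes, of which 402 had a usual gene name. The windows held 228, 171, 243 and 468 probes, of which 183, 154, 203 and 378 were kept.

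Messenger RNA was measured in neurospheres, floating cultures of neural stem cells from mice, kept in EGF and without serum. Neurospheres of the lines Dll1-3 and Dll1-5, both labelled as Dll1 mutant, were each hybridised against wild-type neurospheres on 2 Agilent arrays with swapped dyes, and all cells came from 129/Sv mice crossed with C57BL/6. The labels do not say what the mutation in either line is, nor how the lines differ. The design text gives RNA pooled from 3 preparations for a replicate, so each line was read as 1 replicate whose 2 arrays are technical, and values over both lines have n = 2. The labels name a wild type for each line and do not settle whether both lines were set against the same wild-type pool, so the comparisons may share control RNA. Each value is the log2 ratio of mutant to wild-type signal, where 1 is a doubling, and values are listed throughout in the order replicate 1, replicate 2, with mutant RNA in Cy5 on replicate 1 and in Cy3 on replicate 2. The spread between a line's arrays is technical on this reading, and p-values measure only the spread between these 2 lines.

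Between 80.0% and 82.1% of all probes were well above background in each of the channels. Precision is limited by having only 4 arrays. The Dll1 probe, the check of the labels, stood at -3.31 and -3.22 in Dll1-3 and at -1.65 and -1.64 in Dll1-5, below wild type on all 4 arrays. Of the neural stem cell and radial glia markers, 12 of 12 were well above background in every channel. Their median wild-type level was 12.69 on the log2 scale, against 6.98 for all probes, and their lowest was 6.46. Of 8 microglia and blood markers, 5 were well above background in every wild-type channel and 4 in every mutant channel, at a median level of 6.41. Of 7 endothelial and mural markers, 4 were so in both, at a median level of 6.40 with a highest level of 12.35 for Acta2, a smooth muscle actin. In bulk RNA, fewer cells of a type and less RNA per cell cannot be told apart.

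Mouse chromosome 18 has its centromere at its start, so that the lowest positions are nearest to the centromere. It carries Mib1, the ubiquitin ligase through which Notch ligands such as Dll1 are taken up by the signal-sending cell, a step needed to activate the receptor on its neighbour. It also carries the clustered protocadherins, adhesion molecules of neurons that give single cells a surface identity, and several Smad genes, which transmit signals of the TGF-beta and BMP families.

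The start of the chromosome stood higher in Dll1-5 than in Dll1-3, and the other windows stood lower. In the first window the median of the 183 kept probes was -0.08 and -0.11 in Dll1-3 and 0.13 and 0.09 in Dll1-5. Both arrays of Dll1-3 were thus below wild type there and both arrays of Dll1-5 above it. The median difference of Dll1-5 minus Dll1-3 was 0.21, with 0.25 between the replicate 1 arrays and 0.21 between the replicate 2 arrays, and its middle 50% ran from 0.01 to 0.56. It was above 0 for 141 of 183 probes, or 77.0%, where 50.9% of all 34447 kept probes were above 0 at a median of 0.00.

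In the second window the order of the lines was turned around. The median of its 154 kept probes was 0.21 and 0.16 in Dll1-3 and 0.10 and 0.03 in Dll1-5, so that the Dll1-3 arrays were the higher ones. The difference had a median of -0.15 and was above 0 for 27.9% of the probes. In the third window the medians of 203 probes were 0.14 and 0.08 in Dll1-3 and 0.01 and -0.01 in Dll1-5, with a difference of -0.07 that was above 0 for 38.4%. In the fourth window the medians of 378 probes were 0.13 and 0.07 in Dll1-3 and 0.04 and 0.00 in Dll1-5, with a difference of -0.10 that was above 0 for 33.6%. From the second window on, the medians of Dll1-3 thus stood above wild type on both arrays, while those of Dll1-5 stood nearer to it. These shifts of the median are small beside the spread between probes: the middle 50% of the difference ran from -0.49 to 0.01, from -0.42 to 0.08 and from -0.40 to 0.06 in windows 2, 3 and 4, where that of all kept probes ran from -0.15 to 0.18. From the scanner software's own ratios, without the offset used here, the medians of windows 1 to 4 were larger, at 0.49, -0.36, -0.13 and -0.24, and with dim probes included the first was 0.13.

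Counts of single probes followed the same order. A probe was called apart where both arrays of one line exceeded both arrays of the other, which held for 26.9% of all kept probes with Dll1-5 higher and for 25.1% with Dll1-5 lower. In the first window 96 of 183 probes, or 52.5%, were apart with Dll1-5 higher and 15 with Dll1-5 lower. In the second window 19 of 154 were apart with Dll1-5 higher and 76, or 49.4%, with Dll1-5 lower. The third window had 32 and 84 of 203 probes in these directions, and the fourth window 59 and 153 of 378. Over the whole chromosome 534 of 918 probes, or 58.2%, were apart in either direction, against 52% of all kept probes. Since this is the contrast that chose the windows, nothing is read from these shares. With median centring in place of loess, 154 probes of the chromosome were apart, 34 of those of the first window with Dll1-5 higher and 6 lower.

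Fewer probes differed by a large amount. Apart and at least 2-fold different in the line means, with Dll1-5 higher, were 15, 3, 3 and 5 probes in windows 1 to 4, where 2.3% of all kept probes were. With Dll1-5 lower the numbers were 0, 7, 13 and 11, against 1.52% of all kept probes. In the first window no probe was thus 2-fold lower in Dll1-5, and 15 of 183, or 8.20%, were 2-fold higher. Probes with the lines on opposite sides of wild type on all 4 arrays numbered 39 in the first window with Dll1-5 above wild type, or 21.3% against 5.31% of all kept probes, and 6, 5 and 11 in the others. With Dll1-5 below wild type they numbered 3, 12, 25 and 32, against 4.91% of all kept probes.

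Against wild type the lines were unequal in the number of probes with a large ratio. In Dll1-3, 2, 21, 16 and 31 probes of windows 1 to 4 were at least 2-fold above wild type on both arrays, against 3.97% of all kept probes, and 7, 6, 11 and 20 at least 2-fold below, against 5.18%. The second window held 21 of 154 such higher probes in Dll1-3, or 13.6%, and the first held 2 of 183, or 1.09%. In Dll1-5 the higher probes numbered 4, 12, 6 and 7, against 2.55%, and the lower probes 2, 5, 13 and 10, against 3.01%. Single lines have 1 pooled replicate and no test. In all, 114 probes were 2-fold from wild type in Dll1-3 and 59 in Dll1-5, but 57 and 29 with median centring and 195 and 136 from the scanner software's ratios.

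The mutant channels differed more than the wild-type channels. With the channels of all arrays put on a common scale, the mutant signal of Dll1-5 minus that of Dll1-3 had medians of 0.26, -0.20, -0.13 and -0.11 in windows 1 to 4. The same difference between the wild-type channels of these arrays had medians of 0.03, -0.01, -0.02 and -0.01. The wild-type signals thus differed by less than the mutant signals. The wild-type difference was above 0 for 63.9%, 43.5%, 39.4% and 46.0% of probes in windows 1 to 4, against 50.4% of all kept probes. Whether the lines shared wild-type RNA is not settled by the labels. Over both replicates the medians of the mutant and wild-type differences had the same sign in each window. Between the replicate 2 arrays the wild-type difference had the other sign in windows 3 and 4, at 0.01 and 0.0006.

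Bright probes carried more of the difference than dim ones. Ranked by mean intensity over all kept probes and divided into 3 equal classes, the first window had a median difference of 0.05 for its 72 dim, 0.39 for its 58 middle and 0.53 for its 53 bright probes. For bright probes windows 2, 3 and 4 stood at -0.45, -0.26 and -0.41, and for dim probes at -0.06, -0.06 and -0.04. Middle probes of these windows stood at -0.10, 0.00 and -0.13. In the third window 50% of the 68 middle probes were above 0, so that the difference there lay mainly in the bright probes. Over all kept probes the dim, middle and bright medians were -0.01, 0.01 and 0.03. The window medians thus differed with how bright their probes were. The offset added in background correction compresses the ratios of dim probes, and its part in these values was not tested. Among the bright probes the first window was at -0.33 in Dll1-3 and at 0.29 in Dll1-5, and the second at 0.63 and 0.07.

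Within the first window the difference was largest at the start and smaller with distance from it. In the first bin of 4 Mb the median was -0.36 and -0.38 in Dll1-3 and 0.55 and 0.38 in Dll1-5, so that the arrays of the lines were far apart. From the second to the fourth bin the line medians ran between -0.12 and -0.06 in Dll1-3 and between 0.08 and 0.12 in Dll1-5, and in the fifth bin they stood at -0.02 and -0.04. In consecutive bins the median difference was 0.86 over 9 probes, 0.44 over 48, 0.33 over 39, 0.21 over 34, 0.01 over 9 and -0.02 over 37 probes. The first bin had only 3 genes, Crem, Cul2 and Bambi, and all of its 9 probes were higher in Dll1-5. The bins from 4 to 16 Mb held 42 of 48, 35 of 39 and 28 of 34 probes above 0, and from 20 to 24 Mb 18 of 37 were above 0. The stated boundary at 24.2 Mb thus lay after the position at which the difference reached 0. The next bin, from 24 to 28 Mb, stood at -0.18 over 37 probes, and of the 17 bins from there to the end only the last, with 11 probes, was above 0, at 0.07. The bins from 44 to 48 Mb and from 64 to 68 Mb stood nearly as low as it, at -0.17 each, over 43 and 60 probes.

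Among 209 bins of 12 Mb with at least 50 kept probes over the whole genome, the first 12 Mb of chromosome 18 had the highest median difference, at 0.39 over 96 probes, of which 89.6% were above 0. The next was the start of chromosome 5, at 0.33 over 96 probes. The bin from 12 to 24 Mb of chromosome 18 stood at 0.09 and ranked 20 from the top. The bins that followed stood at -0.14, -0.07, -0.10, -0.16 and -0.08 and ranked between 174 and 201, where the lowest bin of all, on chromosome 13, was at -0.27. As a whole, chromosome 18 had the highest median of 20 chromosomes in Dll1-3, at 0.07, and the second-lowest difference, at -0.05, after chromosome 13 at -0.07. The other bins of chromosome 18 thus lay within the range of the rest of the genome.

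Where a gene had several probes, they mostly pointed the same way. In the first window 43 genes had over 1 kept probe, and all of a gene's probes were above 0 in the difference for 27 of them, all below 0 for 3, and mixed for 13. The second window had 36 such genes, with all probes above 0 for 2 and all below 0 for 24. In the third window the numbers were 8 and 25 of 47, and in the fourth 13 and 46 of 88. Over all chromosomes 2199 of 7634 such genes had all probes above 0 and 2347 all below. Probes of a gene share their RNA and are not replicates of a line.

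Counted by named gene, each read from its brightest probe, 40 of 68 genes of the first window had the lines apart with Dll1-5 higher, 6 had Dll1-5 lower and 22 overlapped. The second window had 5 higher, 37 lower and 22 overlapping of 64 genes. The third had 15, 50 and 38 of 103, and the fourth 24, 85 and 58 of 167. All 402 named genes of the chromosome had 84 higher, 178 lower and 140 overlapping. Of all kept probes of the genome 26.9% were apart with Dll1-5 higher and 25.1% lower. Here and below, counts of genes use brightest probes, while the genome shares cover all kept probes, dim ones included. The 2 are thus not like measures, and no genome share over the brightest probes of named genes is given. A gene's values are those of its brightest probe wherever no other probe is mentioned, and other probes can lie nearer to wild type or on its other side. By position, 11 of 16 named genes from 4 to 8 Mb, 11 of 12 from 8 to 12 Mb and 10 of 17 from 12 to 16 Mb were apart with Dll1-5 higher, and 2 of 16 from 20 to 24 Mb. In the second window 26 of the 48 genes from 32 to 36 Mb were apart with Dll1-5 lower.

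Mib1, whose protein acts on the Notch ligands themselves, had the highest difference of the named genes of the first window. Its brightest probe, at chromosome 18 positions 10862889 to 10862948, was at -1.87 and -1.87 in Dll1-3 and at -0.31 and -0.43 in Dll1-5. By this probe Mib1 was below wild type on all 4 arrays, as Dll1 was, and lower in Dll1-3. The line means of its other probes were -0.64 and -0.72 in Dll1-3, and -0.23 and 0.07 in Dll1-5. The lines differed by 1.50, or 2.83-fold, by this probe, and by 0.40 and 0.79 by its other probes. Rock1, a kinase that drives contraction of the actin cytoskeleton, lies at 10129718 to 10136178, close to Mib1. It was at -1.25 and -1.17 in Dll1-3 and at 0.14 and 0.11 in Dll1-5, a difference of 1.33, with 0.53 and 0.54 by its other probes. Dll1-3 was below wild type for Rock1 and Dll1-5 slightly above it. Ttc39c, at 12924303 to 12924362, was at -1.67 and -1.40 in Dll1-3 and at -0.27 and 0.00 in Dll1-5, a difference of 1.40. Its other probes differed by 0.12 and 0.17 only, so that the size for this gene rests on 1 probe.

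The 3 genes nearest to the start of the chromosome stood together. Crem, a transcription factor that answers to cyclic AMP, was at -0.41 and -0.64 in Dll1-3 and at 0.59 and 0.38 in Dll1-5. Cul2, the scaffold of a family of ubiquitin ligases, was at 0.11 and 0.08 in Dll1-3 and at 0.96 and 0.87 in Dll1-5. Bambi, a decoy receptor that dampens TGF-beta and BMP signals, was at 0.35 and 0.33 in Dll1-3 and at 1.44 and 1.49 in Dll1-5. Both Dll1-5 arrays exceeded both Dll1-3 arrays for each, with differences of 1.01, 0.82 and 1.13. By these probes only Crem was on opposite sides of wild type in the lines, while the other Cul2 probe was as well, at -0.34 in Dll1-3 and 0.18 in Dll1-5. The Crem probe lies at 3272378 to 3272437 and the Bambi probe at 3517044 to 3517103.

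Other genes of the first window differed by less. Thoc1, a subunit of the complex that readies messenger RNA for export, was at 0.19 and 0.27 in Dll1-3 and at 0.72 and 0.80 in Dll1-5. Snrpd1, a core protein of the splicing machinery, was at 0.70 and 0.53 in Dll1-3 and at 1.03 and 0.92 in Dll1-5. Npc1, which moves cholesterol out of lysosomes, was at -1.10 and -1.15 in Dll1-3 and at -0.35 and -0.51 in Dll1-5. Each had the lines apart in the same direction, whether the gene stood above or below wild type in both. Cdh2, the N-cadherin that joins neural progenitors, was at -0.81 and -0.97 in Dll1-3 and at 0.06 and -0.24 in Dll1-5 by its brightest probe, while its other probes differed by -0.07 and 0.03.

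Beyond Cdh2 the desmosomal cadherins Dsg2 and Dsg3 overlapped between the lines, with differences of -0.12 and -0.08. They are adhesion proteins of epithelia, and their probes were dim, at mean intensities of 6.8 and 6.7 on the log2 scale. Of the 6 genes with Dll1-5 lower in this window, 5 lay past 20 Mb, and the other was Lyzl1, named here after its values were seen, with a difference of -0.34. B4galt6, an enzyme of glycolipid synthesis, was at 0.52 and 0.47 in Dll1-3 and at 0.06 and -0.05 in Dll1-5. Trappc8, a subunit of a vesicle tethering complex, was at 0.80 and 0.76 in Dll1-3 and at 0.29 and 0.30 in Dll1-5, although its other probe differed by 0.14 the other way. Rnf138, a ubiquitin ligase, was at 0.98 and 0.58 in Dll1-3 and at 0.55 and 0.20 in Dll1-5, with its other probes at -0.14 and 0.02 in the difference.

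At the boundaries of the windows, the nearest named genes on each side were as follows. At 24.2 Mb, Zscan30 before it differed by 0.13 and Zfp35 after it by -0.44, both zinc finger genes. At 36 Mb, Sting1 before it differed by -1.82 and Ube2d2a, a ubiquitin-conjugating enzyme, after it by -0.79. At 50 Mb, Dtwd2 before it differed by -0.67 and Dmxl1 after it by -0.06, with its arrays overlapping between the lines. Of these pairs of genes, only that at 24.2 Mb had differences of opposite sign. The median difference of the bin from 20 to 24 Mb, before that boundary, was already at -0.02.

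In the second window the genes with the lowest differences stood above wild type in both lines and higher in Dll1-3. Sting1, the adaptor through which cells answer to DNA in the cytosol, was at 3.24 and 2.96 in Dll1-3 and at 1.35 and 1.22 in Dll1-5. Its probe lies at 35957704 to 35957763, and the lines differed by 3.53-fold. Stard4, a carrier of cholesterol, was at 3.07 and 2.69 in Dll1-3 and at 1.54 and 1.45 in Dll1-5, a difference of -1.38, with -0.99 and -0.85 by its other probes. Cdc25c, the phosphatase that starts mitosis, was at 1.60 and 1.85 in Dll1-3 and at 0.47 and 0.65 in Dll1-5, a difference of -1.17. These 3 genes had both arrays of both lines above wild type. Hspa9, a chaperone of mitochondria, was at 1.70 and 1.63 in Dll1-3 and at 0.73 and 0.74 in Dll1-5.

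A few genes of the second window went the other way. Tslp, a cytokine of barrier tissues, was at 2.00 and 1.98 in Dll1-3 and at 3.05 and 3.13 in Dll1-5, a difference of 1.10. Sft2d3, of a family named for vesicle transport, was at 0.21 and 0.33 in Dll1-3 and at 0.76 and 0.93 in Dll1-5, with 0.31 to 1.27 by its other probes. Nrep, named for neuronal regeneration, was at -1.48 and -1.85 in Dll1-3 and at -0.95 and -1.45 in Dll1-5, and its other probes ranged from -0.11 to 0.37 in the difference. For Nrep the nearest arrays of the lines almost met. Egr1 and Bin1, by contrast, were lower in Dll1-5, with differences of -0.69 and -0.49. Egr1, an immediate early transcription factor, was below wild type in both lines, at -1.15 and -1.29 in Dll1-3 and at -1.79 and -2.04 in Dll1-5. Bin1, which shapes membranes, was at 0.13 and 0.16 in Dll1-3 and at -0.37 and -0.32 in Dll1-5.

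The third window holds the protocadherin clusters, and the lowest difference on the chromosome lay in it. Pcdha9, of the alpha cluster, was at 2.23 and 2.45 in Dll1-3 and at -0.40 and -0.50 in Dll1-5, by a probe at 37408827 to 37408886. The lines were on opposite sides of wild type and differed by 6.90-fold, while its other probes differed by -1.08 and 0.12. Genes of the alpha cluster share their last exons, as do those of the gamma cluster, so a probe can read several of them. Of 31 clustered protocadherins on the array 29 were kept, 18 of them apart with Dll1-5 lower, 1 higher and 9 overlapping, and 1 lacked a value on an array. Their median difference was -0.23, with medians of -0.08 in Dll1-3 and -0.49 in Dll1-5. Of the 103 named genes of the third window 50 were apart with Dll1-5 lower and 15 with Dll1-5 higher. Of all kept probes of the genome 25.1% and 26.9% were so.

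Most of the lower ones belonged to the beta cluster, whose genes are single exons of similar sequence. Pcdhb3 was at -0.05 and -0.13 in Dll1-3 and at -1.45 and -1.47 in Dll1-5. Dll1-3 was thus near wild type for Pcdhb3 and Dll1-5 well below it. Pcdhb17, the one clustered gene apart in the other direction, was at -0.88 and -1.20 in Dll1-3 and at -0.07 and -0.51 in Dll1-5. Pcdhga1 of the gamma cluster overlapped between the lines, at 0.14 and -0.20 in Dll1-3 and at 0.12 and 0.16 in Dll1-5. Pcdh1, a protocadherin outside the clusters, overlapped as well, with a difference of 0.18. Taf7, a subunit of the general transcription factor TFIID, lies at 37866961 to 37867020, between the Pcdhb17 and Pcdhga1 probes. It was at 0.83 and 1.15 in Dll1-3 and at -0.84 and -0.67 in Dll1-5, a difference of -1.75, and its other probes differed by -1.58 and -0.87.

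Among the other genes of the third window, Hbegf and Spry4, both of growth factor signalling, were higher in Dll1-3. Hbegf, a ligand of the EGF receptor, was at 1.35 and 1.52 in Dll1-3 and at -0.07 and 0.16 in Dll1-5, a difference of -1.39. Spry4, an inhibitor of receptor tyrosine kinase signalling, was at 3.32 and 3.22 in Dll1-3 and at 2.01 and 1.93 in Dll1-5, a difference of -1.30. Spry4 was thus far above wild type in both lines, and Hbegf in Dll1-3 only. Lars, the enzyme that charges leucine transfer RNA, was at 1.39 and 1.34 in Dll1-3 and at 0.37 and 0.31 in Dll1-5. Dpysl3, a protein of growing axons at 43545857 to 43548353, had the highest difference on the chromosome. It was at -3.07 and -2.88 in Dll1-3 and at -0.63 and -0.34 in Dll1-5, below wild type on all 4 arrays and 5.64-fold lower in Dll1-3. Kcnn2, a potassium channel of neurons, was at -0.69 and -0.56 in Dll1-3 and at -0.25 and -0.10 in Dll1-5.

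In the fourth window Prdm6, a transcriptional repressor of the PR domain family, had the lowest difference. Its dim probe, at 53794708 to 53794767, was at 2.33 and 2.90 in Dll1-3 and at 0.22 and -0.19 in Dll1-5, so that Dll1-3 alone was above wild type on both arrays. Katnal2, related to the microtubule-severing enzyme katanin, was at 0.91 and 0.85 in Dll1-3 and at -0.90 and -1.03 in Dll1-5, a difference of -1.85, with -0.96 by its other probe.

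In the same window, genes of mitosis, matrix and metabolism were among those higher in Dll1-3. Ska1, which holds kinetochores to microtubules, was at 2.52 and 2.44 in Dll1-3 and at 1.25 and 1.18 in Dll1-5. Fbn2, a microfibril protein, was at 1.33 and 1.38 in Dll1-3 and at 0.14 and 0.17 in Dll1-5. Ndst1, an enzyme of heparan sulfate, was at 0.05 and 0.17 in Dll1-3 and at -0.86 and -0.74 in Dll1-5, and its other probes ranged from -0.91 to 0.47 in the difference. Fbn2 thus stood near wild type in Dll1-5, and Ndst1 below it. Grpel2, a helper of mitochondrial protein import, was at 1.14 and 0.91 in Dll1-3 and at 0.21 and 0.04 in Dll1-5. Slc12a2, a chloride cotransporter, was at 1.17 and 1.15 in Dll1-3 and at 0.93 and 0.83 in Dll1-5.

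The genes highest in the difference in the fourth window were of several kinds. Neto1, an auxiliary protein of glutamate receptors at 86671177 to 86671236, was at -2.57 and -2.33 in Dll1-3 and at -0.27 and -0.18 in Dll1-5, a difference of 2.23. Slc14a1, a urea transporter, was at -0.29 and -0.41 in Dll1-3 and at 0.84 and 0.93 in Dll1-5. Zfp608, a zinc finger gene, was at -1.30 and -1.41 in Dll1-3 and at -0.22 and -0.24 in Dll1-5. Their other probes were smaller in the difference, at 0.93 for Neto1, 0.38 for Slc14a1, and 0.39 and 0.77 for Zfp608. Acaa2, an enzyme of fatty acid oxidation, was below wild type in both lines, at -1.09 and -1.01 in Dll1-3 and at -0.85 and -0.74 in Dll1-5. Chsy3, an enzyme of chondroitin sulfate, differed by 0.29, and Grp, a signalling peptide, by 0.46 with mutant RNA well above background on only 1 of the Dll1-3 arrays.

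Grouped by role, the kept genes of the chromosome differed in their medians. Over all 576 kept genes the median difference was -0.05, with 119 apart and higher in Dll1-5 and 207 lower. Of all kept probes of the genome 26.9% were apart and higher in Dll1-5, and 25.1% lower. Of 22 genes of the cell cycle, mitosis and DNA repair, 12 were apart and lower in Dll1-5, 6 higher and 4 overlapped, at a median difference of -0.41. Their median against wild type was 0.73 in Dll1-3 and 0.35 in Dll1-5. All of the 6 that were higher in Dll1-5, Rock1 and Cul2 among them, lay in the first window. Role and position thus overlap in this list.

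Of 21 kept mitochondrial and metabolic genes, 16 were apart and lower in Dll1-5, 2 higher and 3 overlapped, at a median difference of -0.40. Of 28 genes of RNA processing and translation, 15 were lower, 4 higher and 8 overlapped, at a median of -0.36, and 1 lacked a value on an array. Hspa9 and Grpel2 were the lowest of the first list, and Taf7 and Lars of the other. Only Npc1 of the first list and only Thoc1 and Snrpd1 of the other lay in the first window. Role and position thus overlap in these lists as well. Of 12 genes of developmental signalling, 6 were lower, 4 higher and 2 overlapped, at a median of -0.35. Csnk1a1, a kinase that marks beta-catenin for destruction, differed by -0.83, with its other probes from -0.86 to 0.23. Nedd4l, a ubiquitin ligase, was at 0.73 and 0.78 in Dll1-3 and at 0.03 and -0.20 in Dll1-5. Mib1 and Bambi, both of the first window, were the highest of this list.

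Glial and neuronal genes leaned the other way. Of 24 kept, 11 were apart and higher in Dll1-5, 2 lower and 11 overlapped, at a median difference of 0.18. Their medians against wild type were below 0 in both lines, at -0.55 in Dll1-3 and -0.28 in Dll1-5. Of these 24 genes, 10 were at least 2-fold below wild type in Dll1-3 on both arrays and 4 in Dll1-5. Of all kept probes 5.18% and 3.01% were so, but these include dim probes, while the genes were read from their brightest probes. Other probes of Gpr17 and Ppp2r2b, both in this list, lay nearer to wild type, as given below. The list was written with earlier results of these data known. The markers of neural stem cells and radial glia, none of them a member, had medians of -0.71 and -0.72 in the lines, and their part in this list was not tested.

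The remaining lists were close to 0 or mixed. Of 27 kept transcription factors and chromatin proteins, 8 were higher, 11 lower and 7 overlapped, at a median difference of -0.04, and 1 lacked a value on an array. Of 15 growth factors, guidance cues and receptors, 5 were higher, 4 lower and 6 overlapped, at a median of 0.03. Of 10 classical and desmosomal cadherins, 9 overlapped, and Cdh2 alone was apart. Of 6 kept matrix and proteoglycan enzymes, 1 was higher, 2 lower and 3 overlapped, at a median of -0.20, with Lama3, a laminin chain, at 0.01.

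The mean of both lines against wild type is not the contrast that chose the windows. It was tested with limma over all 34445 probes with a value in both lines. Its p-values use the spread between the lines, which is the contrast that chose the windows, so they are not free of that choice. After Benjamini-Hochberg adjustment 0 probes, or 0%, passed 0.05, on chromosome 18 or elsewhere, and the smallest adjusted p was 0.0756. That count rested on single arrays and settings: 2402 probes passed without Dll1-3 replicate 1, 2830 without Dll1-5 replicate 2, 1718 with an offset of 10 and 956 from the scanner software's ratios. At an unadjusted p below 0.05, 26.9% of all probes passed in either direction, 11.7% above wild type and 15.2% below. On chromosome 18, 228 of 918 passed, or 24.8%, of which 132 were above and 96 below. By window the higher ones numbered 16, 38, 27 and 51, and the lower ones 9, 15, 29 and 43. The second window had 24.7% of its probes above wild type by this measure and the first 8.74%. Where the lines stand on opposite sides of wild type, their mean is small and their spread large. Nothing is therefore read from these shares by window.

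The genes of smallest p were far from wild type in both lines by their brightest probes. Ppp2r2b, a brain subunit of protein phosphatase 2A at 42866141 to 42866200, was at -4.45 and -4.16 in Dll1-3 and at -4.21 and -3.81 in Dll1-5. Gpr17, a receptor of oligodendrocyte progenitors at 32183241 to 32183300, was at -4.25 and -4.20 in Dll1-3 and at -3.91 and -3.95 in Dll1-5. Other probes of these genes were nearer to wild type: that of Gpr17 was at 0.03 and 0.00 in the means of Dll1-3 and Dll1-5, and the 3 of Ppp2r2b ranged from -2.99 to -0.25 in Dll1-3 and from -2.86 to -0.20 in Dll1-5. Lims2, a protein of cell-matrix contacts, was at -3.16 and -2.58 in Dll1-3 and at -2.94 and -2.46 in Dll1-5. Psd2, an activator of the small GTPase Arf6, was at -2.67 and -2.13 in Dll1-3 and at -2.49 and -2.06 in Dll1-5. By these probes all 4 were below wild type on all 4 arrays, and except for Gpr17 the lines overlapped. Their means over both lines were -4.16 ± 0.21, -4.08 ± 0.21, -2.78 ± 0.12 and -2.34 ± 0.09 (SD, n = 2 lines), with adjusted p = 0.0756 by limma for each.

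Other genes were also far from wild type in both lines by their brightest probe. Apcdd1, an inhibitor of Wnt signalling at 63182461 to 63182520, was at -4.55 and -4.79 in Dll1-3 and at -3.47 and -3.72 in Dll1-5, but its other probe stood above wild type, at 0.33 and 0.39 in the line means of Dll1-3 and Dll1-5. Gypc, a membrane glycoprotein of red cells, was at 3.59 and 3.58 in Dll1-3 and at 2.35 and 2.61 in Dll1-5. Wdr55, a protein of the nucleolus, was at 2.14 and 1.90 in Dll1-3 and at 2.11 and 1.95 in Dll1-5. Wdr55 thus overlapped between the lines, with a difference of 0.01, whereas Apcdd1 and Gypc had the lines apart in opposite directions. Probes at least 2-fold from wild type on all 4 arrays numbered 19 above, or 2.07% against 1.4% of all kept probes, and 21 below, or 2.29% against 2.24%.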

How the data were processed

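The authors deposited scanner files with spot intensity in both channels, made with Agilent Feature Extraction 8.1.1.1 per the submitters' processing notes. A log10 ratio (Cy5 over Cy3), corrected by the scanner software, is among their columns per the file headers. The series' deposited table of values was on a log10 scale too, with slopes of 1.00 in size against the scanner ratios and r of -0.962, -0.956, -0.954 and -0.956 with mutant over wild type, which makes its direction wild type over mutant. Column medians of that table were -0.03, 0.01, -0.02 and 0.01, its centring is unknown, and it was an alternative.

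Mean signals had normexp background correction (offset 50) and normalised by loess within arrays (span 0.3), with control and outlier spots at weight 0 and then left out, in limma 3.58.1 and R 4.3.3. Ratios were oriented as log2 of mutant over wild type, spots of a probe averaged, and the arrays of a line averaged. A probe was kept where one RNA passed the scanner's background test on both arrays of a line. Line means were tested against 0 with lmFit and eBayes (residual degrees of freedom 1, prior degrees 1.73), which was checked on simulated data. Channels were compared after Aquantile. With 1 array a slide, slides could not serve as batches. A gene was read from its probe of highest mean intensity. Of the 1110 probes, 553 were named by accession, 239 by symbol and 97 by synonym through RefSeq (GRCm38.p6, used for names only), and 221 kept the file's name. RefSeq places 4 of the probes' genes on another chromosome.

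Genes were named by rule: the 3 highest and 3 lowest per window in the line difference with lines apart, the 3 highest and lowest per line, the 4 of smallest p, the 2 highest and lowest per role list, the genes beside each boundary, and Mib1. Acta2 and Lyzl1 were named after their values were seen. One gene that the rule names is not reported here. Members, windows and lists were chosen with earlier results of these data known. No sequence is printed. Alternatives covered background, offset, normalisation, ratio source, filters, probe choice, boundaries and single arrays.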

Additional observations from a re-analysis of the deposited data

Results flagged for a closer look

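In the following, every array of one line stood on one side of wild type and every array of the other line on the opposite side, and in none of them was the difference tested. The median of the first window had a difference of 0.21 for Dll1-5 minus Dll1-3, with Dll1-5 above wild type. Of single genes, by their brightest probe, Rock1 at 1.33, Slc14a1 at 1.24 and Crem at 1.01 had Dll1-5 above wild type and Dll1-3 below. With Dll1-5 below wild type and Dll1-3 above were Pcdha9 at -2.79, Katnal2 at -1.85, Taf7 at -1.75, Ndst1 at -0.91, Csnk1a1 at -0.83, Ube2d2a at -0.79 and Bin1 at -0.49. Other probes of Pcdha9, Ndst1 and Csnk1a1 included some with a difference of the other sign, and the other probe of Bin1 was above wild type in both lines, at 0.52 and 0.03. A probe of Ube2d2a was above wild type in both lines as well, at 0.92 in Dll1-3 and 0.25 in Dll1-5. So was a probe of Crem, at 0.03 and 0.31.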

How the results depend on the processing

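The sign of each window's difference held in all 16 alternatives run. Its size in windows 1 to 4, where 0.21, -0.15, -0.07 and -0.10 are reported, was 0.36, -0.24, -0.12 and -0.17 with an offset of 10, 0.49, -0.36, -0.13 and -0.24 from the scanner ratios, 0.48, -0.36, -0.13 and -0.24 from the deposited table, 0.13, -0.12, -0.060 and -0.077 without a filter, 0.31, -0.27, -0.090 and -0.14 for probes above background in every channel, and 0.31, -0.23, -0.19 and -0.17 as means. Median centring gave -0.18, -0.13 and -0.13 in windows 2 to 4, and no background correction -0.13 and -0.063 in windows 2 and 3. With 1 probe per gene window 3 was at -0.050, and without clustered protocadherins at -0.061. Boundaries 1 Mb nearer the start gave -0.11 and -0.083 in windows 2 and 3, and 1 Mb nearer the end 0.18, -0.091 and -0.090 in windows 1 to 3. Leaving out each array gave 0.20 to 0.31, -0.19 to -0.16, -0.11 to -0.083 and -0.16 to -0.096; window 1 was at 0.31 without Dll1-5 replicate 2. Window 3 was at -0.11 without Dll1-3 replicate 2, and window 4 at -0.16 without Dll1-5 replicate 1. Limma called 0 probes, but 1718 with an offset of 10, 956 from scanner ratios, 0 to 2830 with an array left out (2402 without Dll1-3 replicate 1, 2830 without Dll1-5 replicate 2), and with the arrays as separate samples 11301, or 9624 with a block for the replicate number. Arrays of the same number deviated together (r = 0.678). This is a single comparison, since centring each line on its mean gives both numbers the same r. The replicate number goes with the dye orientation, and the 2 cannot be told apart. Probes apart numbered 534, but 154 with median centring and 326 with 1 probe per gene. Probes 2-fold in Dll1-3 numbered 114, but 57, 195 and 191 with median centring, scanner ratios and the deposited table. Those of Dll1-5 numbered 59, but 29, 136 and 131, and 91 with an offset of 10. The cause of these shifts was not tested. Of 576 values of the named genes under 9 alternatives, 561 kept their sign, as did all 486 of the 54 genes with the lines apart. With 1 pooled replicate a line, no difference between lines could be tested, and dim probes near background have compressed ratios.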
